A study of Homo sapiens with 8 samples.

Results

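The genes described here are NFE2L2, which encodes the transcription factor NRF2, and 9 genes commonly listed as its targets: NQO1, HMOX1, GCLM, TXNRD1, SRXN1 and the aldo-keto reductases AKR1B10, AKR1C1, AKR1C2 and AKR1C3. They were taken by gene symbol and are 10 of the 27475 human genes in the expression tables. The tables hold 8 RNA-seq libraries from 2 human bladder cancer cell lines, UM-UC-3 and RT112. Each line was transfected with scrambled control siRNA (Scr) or with siPAI-1, each a pool of 3 siRNAs, at 100 pmol for 72 h. The 4 groups are UM-UC-3 Scr, UM-UC-3 siPAI-1, RT112 Scr and RT112 siPAI-1, with 2 libraries each. RPMI 1640 and DMEM are both named as media without saying which line grew in which, so medium and cell line cannot be told apart. Each line stands for itself, as 1 line.

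NRF2 is held in the cytoplasm and marked for degradation by KEAP1, an adaptor of the CUL3 ubiquitin ligase. Electrophiles and oxidants modify KEAP1, NRF2 then accumulates, pairs with small MAF proteins and binds antioxidant response elements, while BACH1 competes for these sites. Its targets detoxify quinones, make glutathione, reduce thioredoxin, supply NADPH, break down heme and reduce carbonyl compounds, and lasting NRF2 activity is known from many carcinomas. Because the protein is controlled mainly by its stability, the mRNA level of NFE2L2 is not a measure of NRF2 activity.

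Levels are given as TPM, the share of a gene's transcripts among all transcripts of a library on a fixed total, which is scaled to transcript length and can be compared between genes. All 10 genes were above 0 TPM in all 8 libraries. The libraries held an estimated 29.3 to 34.2 M reads each, 2.45% to 4.88% of the TPM came from mitochondrial genes, and 16157 to 16663 genes were above 0. Of 12 epithelial and urothelial markers, 12 reached 1 TPM in both libraries of RT112 Scr and 4 in both of UM-UC-3 Scr, with summed levels of 13700 to 13990 TPM and 227.8 to 245.1 TPM. Of 6 mesenchymal markers, 6 reached 1 TPM in both libraries of UM-UC-3 Scr and 3 in both of RT112 Scr. Their sums were 3255 to 3534 TPM and 139.2 to 147.5 TPM, and VIM alone held 3142.15 and 2852.45 TPM in UM-UC-3 Scr. In RT112 Scr 4 of the 6 lay lower and 2 higher. The higher ones were FN1, at 112.61 and 120.39 TPM against 64.29 and 70.56 TPM, and CDH2, at 18.19 and 20.58 TPM against 10.61 and 9.22 TPM. Of 6 markers of other cell types, 0 reached 1 TPM in any Scr library. The part of this difference in cell state in the results given here was not tested. In bulk RNA, fewer cells that express a gene and less RNA of it per cell cannot be told apart.

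**Figure D1:**
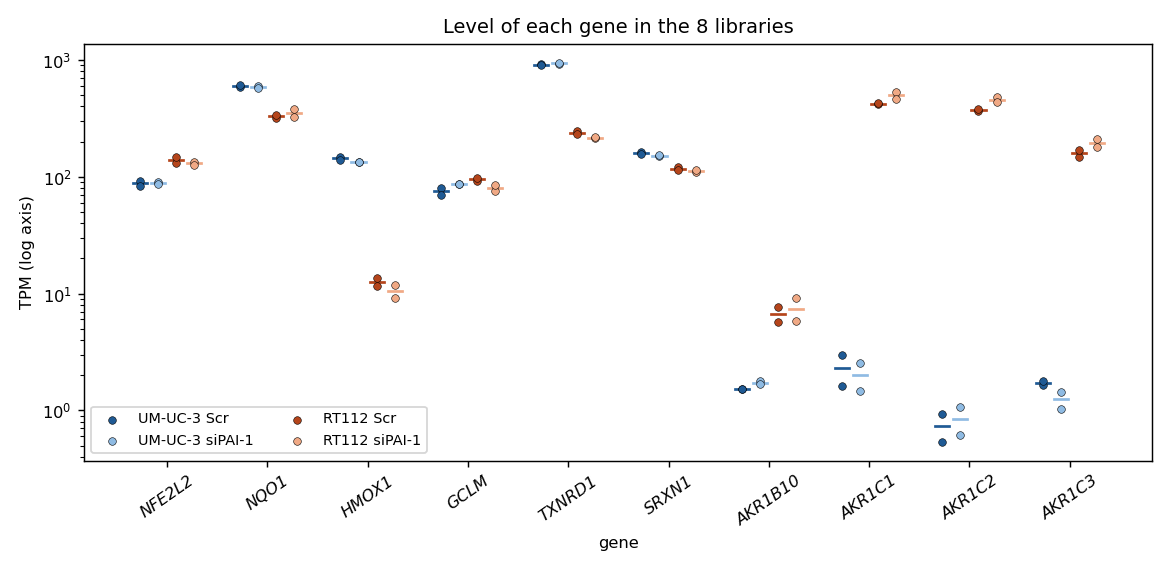
Level of each of the 10 genes in TPM on a log axis, with a point for each library and a line at each group mean (n = 2). AKR1C1, AKR1C2 and AKR1C3 lie between 0.54 and 2.99 TPM in UM-UC-3 and between 147.39 and 535.19 TPM in RT112, whereas TXNRD1 and HMOX1 lie higher in UM-UC-3.

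The first comparison was of the 2 lines, RT112 against UM-UC-3, in the Scr libraries. The 3 AKR1C genes were present at a few TPM or less in UM-UC-3 and were among the highly expressed genes of RT112, while the thioredoxin reductase gene TXNRD1, the heme oxygenase gene HMOX1, the quinone reductase gene NQO1 and the sulfiredoxin gene SRXN1 were higher in UM-UC-3. All 10 genes passed the test (limma on log2(TPM + 0.1), Benjamini-Hochberg adjusted p under 0.05 over 19201 genes), 6 of them higher and 4 of them lower in RT112. The lines differ widely, since 25.3% of all genes tested were called higher in RT112 and 26.3% lower, so a call by itself does not set these genes apart. The median log2 fold change of the 10 genes was 0.51, against -0.06 for all genes tested.

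NFE2L2 itself measured 92.39 and 83.17 TPM in UM-UC-3 Scr and 132.06 and 146.12 TPM in RT112 Scr. Both RT112 libraries lay above both UM-UC-3 libraries. The difference was 1.58-fold (log2 fold change 0.66, SE 0.09, adjusted p = 0.00566). KEAP1, the repressor of NRF2, was also higher in RT112, at 33.95 and 34.18 TPM against 25.22 and 24.38 TPM (log2 fold change 0.46, SE 0.07, adjusted p = 0.00858).

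Among the targets, NQO1, which reduces quinones in a single step that avoids semiquinone radicals, measured 591.03 and 607.38 TPM in UM-UC-3 Scr and 317.2 and 339.27 TPM in RT112 Scr. It was high in both lines and 1.83-fold lower in RT112 (log2 fold change -0.87, SE 0.05, adjusted p = 0.00089). HMOX1, which opens the heme ring and frees iron, measured 148.13 and 139.37 TPM in UM-UC-3 Scr and 11.64 and 13.66 TPM in RT112 Scr. This was an 11.3-fold lower level in RT112, with no overlap between the lines (log2 fold change -3.50, SE 0.1, adjusted p = 0.000313). HMOX2, the other heme oxygenase, lay the other way, at 65.12 and 61.71 TPM in UM-UC-3 Scr and 139.07 and 142.68 TPM in RT112 Scr (log2 fold change 1.15, SE 0.06, adjusted p = 0.000626).

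TXNRD1, which passes electrons from NADPH to thioredoxin, was the highest of the 10 genes in UM-UC-3 Scr at 922 and 899.13 TPM and measured 243.72 and 232.43 TPM in RT112 Scr. The level was 3.82-fold lower in RT112 (log2 fold change -1.94, SE 0.05, adjusted p = 0.000274). SRXN1, which restores overoxidised peroxiredoxins, measured 162.38 and 157.94 TPM in UM-UC-3 Scr and 120.55 and 113.68 TPM in RT112 Scr. Its difference was smaller, 1.37-fold lower in RT112 (log2 fold change -0.45, SE 0.06, adjusted p = 0.00466). GCLM, the modifier subunit of the enzyme that starts glutathione synthesis, measured 79.98 and 69.72 TPM in UM-UC-3 Scr and 92.6 and 97.88 TPM in RT112 Scr. It was 1.27-fold higher in RT112 (log2 fold change 0.35, SE 0.09, adjusted p = 0.0362), and this call was lost without the mean trend in limma (adjusted p = 0.11). GCLC, the catalytic subunit of the same enzyme, was 37.07 and 38.3 TPM in UM-UC-3 Scr and 96.84 and 88.3 TPM in RT112 Scr (log2 fold change 1.29, SE 0.07, adjusted p = 0.000803).

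The aldo-keto reductases reduce aldehydes and ketones with NADPH. AKR1C1 and AKR1C2 act on steroids such as progesterone and dihydrotestosterone, AKR1C3 also makes testosterone and prostaglandin F2alpha, and AKR1B10 reduces retinal and other aldehydes. AKR1C1 measured 1.62 and 2.99 TPM in UM-UC-3 Scr and 415.01 and 424.33 TPM in RT112 Scr. AKR1C2 measured 0.54 and 0.93 TPM in UM-UC-3 Scr and 366.65 and 376.38 TPM in RT112 Scr. AKR1C3 measured 1.64 and 1.79 TPM in UM-UC-3 Scr and 147.39 and 168.97 TPM in RT112 Scr. The levels in RT112 were 182-fold, 458-fold and 87.1-fold higher on the log2(TPM + 0.1) scale (log2 fold changes 7.51 with SE 0.31, 8.84 with SE 0.26 and 6.44 with SE 0.12, adjusted p = 0.000476, 0.000312 and 0.000243). The sizes depend on the pseudocount because the UM-UC-3 levels are low, and with a pseudocount of 1 TPM the log2 fold changes were 7.02, 7.76 and 5.87. The UM-UC-3 level of AKR1C2 rests on an estimated 35 to 70 reads per library, if its canonical transcript of 3215 bases is taken.

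AKR1B10 was low in both lines, at 1.51 and 1.52 TPM in UM-UC-3 Scr and 5.69 and 7.6 TPM in RT112 Scr. It was 4.13-fold higher in RT112 (log2 fold change 2.05, SE 0.23, adjusted p = 0.00369). Calls of NFE2L2 and GCLM were lost when any 1 of the 4 Scr libraries was left out (adjusted p from 0.0674 to 0.253), and those of SRXN1 and AKR1B10 when either UM-UC-3 Scr library was left out. NQO1, HMOX1, TXNRD1 and the 3 AKR1C genes passed the test in all 12 alternative analyses.

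The order of the levels therefore differed between the lines. In UM-UC-3 Scr it ran TXNRD1, NQO1, SRXN1, HMOX1, NFE2L2, GCLM, AKR1C1, AKR1C3, AKR1B10 and AKR1C2, and among neighbours the libraries of AKR1C1 and AKR1C3 overlapped. In RT112 Scr it ran AKR1C1, AKR1C2, NQO1, TXNRD1, AKR1C3, NFE2L2, SRXN1, GCLM, HMOX1 and AKR1B10, with no overlap of neighbours. AKR1C1 ranked 10930 of 17513 expressed genes in UM-UC-3 Scr and 353 of 17216 in RT112 Scr. Summed, AKR1C1, AKR1C2 and AKR1C3 took 3.8 and 5.71 TPM in UM-UC-3 Scr and 929 and 969.7 TPM in RT112 Scr, while NQO1, HMOX1, GCLM, TXNRD1 and SRXN1 took 1904 and 1874 TPM in UM-UC-3 Scr and 785.7 and 796.9 TPM in RT112 Scr. The sum over all 10 genes was 2001 and 1964 TPM in UM-UC-3 Scr and 1853 and 1920 TPM in RT112 Scr, with both RT112 libraries under both UM-UC-3 libraries.

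**Figure D2:**
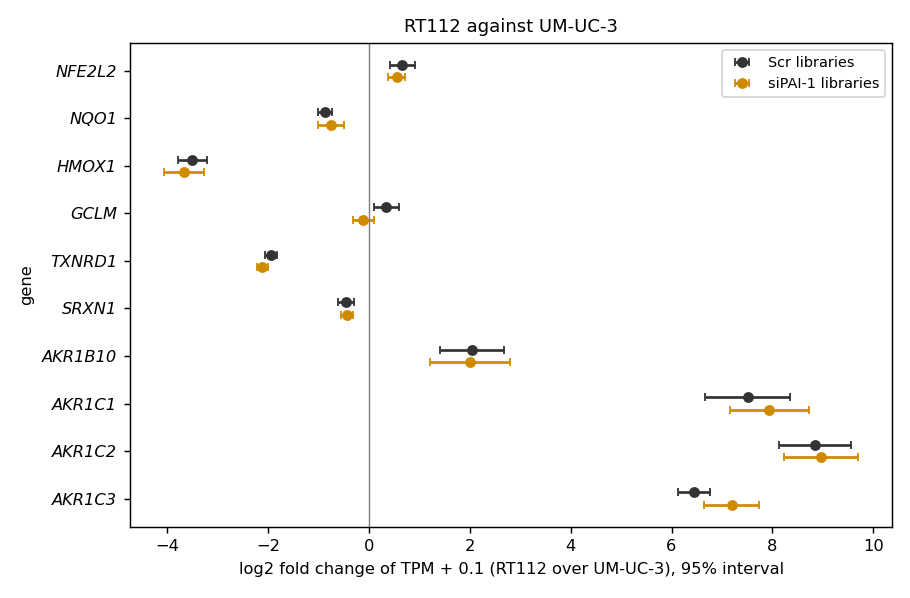
Log2 fold change of TPM + 0.1 for RT112 over UM-UC-3 with its 95% interval from limma, for the Scr and the siPAI-1 libraries (2 libraries per line each). HMOX1 lies at -3.50 in Scr and -3.66 in siPAI-1 and AKR1C2 at 8.84 and 8.96, while GCLM lies at 0.35 and -0.11.

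AKR1C1, AKR1C2 and AKR1C3 are neighbours on chromosome 10 (GRCh38.p14, chr10:4963415-4983283, chr10:4987775-5018000 and chr10:5048781-5107686), and AKR1C4 lies beyond them at chr10:5196837-5218949. Their coding sequences of 972 bases are 98% identical between AKR1C1 and AKR1C2 (19 differences), 91.5% between AKR1C1 and AKR1C3 and 91% between AKR1C2 and AKR1C3. The stretch from base 103 to base 162 of the coding sequence was chosen as the 60 bases with the most differences between AKR1C1 and AKR1C2. It holds 15 positions at which the 3 genes differ, shown in capitals in the GENCODE sequences, and 10 of these separate AKR1C1 from AKR1C2.
AKR1C1: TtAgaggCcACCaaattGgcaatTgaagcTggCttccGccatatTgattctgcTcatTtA
AKR1C2: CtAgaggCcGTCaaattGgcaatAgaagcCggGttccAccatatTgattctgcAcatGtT
AKR1C3: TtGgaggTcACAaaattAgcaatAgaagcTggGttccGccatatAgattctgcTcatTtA

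These stretches are shown because the reads were 75 bases long, and how far the genes differ bears on how reads were divided between them. Of all 75-base windows of the canonical AKR1C2 transcript, 33.9% occur unchanged in AKR1C1, and of those of AKR1C1 16.5% occur in AKR1C2. These transcripts are 3215 and 6543 bases long, against 972 coding bases, and share 1066 windows in either direction. The shares therefore depend on the transcript taken. For AKR1C3, 6.21% of the windows occur in AKR1C1 and 10.7% in AKR1C2. The split between AKR1C1 and AKR1C2 is therefore uncertain. Their sum was 2.16 and 3.92 TPM in UM-UC-3 Scr and 781.7 and 800.7 TPM in RT112 Scr. The ratio of AKR1C1 to AKR1C2 was 1.13 in both RT112 Scr libraries, against 3 and 3.22 for UM-UC-3 Scr and 4.1 and 1.36 for UM-UC-3 siPAI-1, where it rests on few AKR1C2 reads. AKR1C4, the liver member of the cluster, which was picked out after its values were seen, stayed between 0 and 0.13 TPM in all 8 libraries.

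Of the 10 genes, 8 were in the set of RefSeq promoter sequences used here (GRCh38.p14, 250 bases before to 50 bases after the annotated start). The core of the antioxidant response element, TGACNNNGC, was searched on both strands of the 250 bases before the start. It occurred in 3830 of 35116 promoters (10.9%), counted per promoter. For the gene lists, a gene counted if any of its promoters held a match. This was so for 2 of the 8 genes and for 23 of 87 genes of the wider NRF2-related lists (26.4%). A gene with several promoters has more chances of a match, so these shares cannot be set against 10.9%. All matches among the 8 genes are shown, which lie in GCLM and TXNRD1, with the match in capitals and 15 bases on either side.
GCLM, chr1:93909441-93909479, minus strand: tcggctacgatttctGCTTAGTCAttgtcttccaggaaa
TXNRD1, first start, chr12:104215665-104215703, plus strand: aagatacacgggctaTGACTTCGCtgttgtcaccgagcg
TXNRD1, second start, chr12:104286915-104286953, plus strand: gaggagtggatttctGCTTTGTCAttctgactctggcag

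None of these matches overlapped the AP-1 motif TGACTCA or its reverse complement. The windows of AKR1C1, AKR1C2, AKR1C3, NFE2L2, NQO1 and SRXN1 held no match. This says only that these letters are absent from the 250 bases searched. AKR1B10 and HMOX1 were not in the set of promoter sequences used, so they were not searched.

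The rest of the pathway was described through 7 wider lists of 111 genes beyond the 10. Their counts stand against the 25.3% of all genes tested that were called higher in RT112 Scr and the 26.3% called lower, and nothing particular to a list is read from them. Regulators of NRF2 had 6 of 15 tested genes called higher and 2 called lower in RT112 Scr, with a median log2 fold change of 0.23. The genes with the smallest p were MAFF, a small MAF partner, at 7.83 and 6.56 TPM in UM-UC-3 Scr and 23.13 and 21.38 TPM in RT112 Scr, NFE2L3, a relative of NRF2, at 33.49 and 29.14 TPM and 61.13 and 70.22 TPM, and DPP3, which binds KEAP1, at 41.7 and 34.27 TPM and 83.2 and 77.47 TPM. BACH1, the competing repressor, overlapped between the lines, at 13.36 and 16.48 TPM in UM-UC-3 Scr and 14.5 and 9.3 TPM in RT112 Scr (log2 fold change -0.35, SE 0.26, adjusted p = 0.342).

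Of 26 glutathione genes, 11 were called higher and 6 lower in RT112 Scr, with a median log2 fold change of 0.45. SLC3A2, the heavy chain of amino acid transporters, measured 143.35 and 151.14 TPM in UM-UC-3 Scr and 1027.54 and 1001.02 TPM in RT112 Scr. SLC7A11, its cystine-importing partner, did not pass the test, at 13.64 and 11.36 TPM and 11.26 and 9.39 TPM (log2 fold change -0.27, SE 0.16, adjusted p = 0.248). The microsomal transferases MGST2, at 0.69 and 0.63 TPM against 29.14 and 27.21 TPM, and MGST1, at 223.91 and 228.11 TPM against 638.37 and 674.55 TPM, were higher in RT112. GPX2, an epithelial glutathione peroxidase, measured 0.23 and 0.63 TPM in UM-UC-3 Scr and 211.63 and 236.56 TPM in RT112 Scr.

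Of 15 thioredoxin and peroxiredoxin genes beyond TXNRD1 and SRXN1, 8 were called higher and 1 lower in RT112 Scr, and 10 and 0 in the siPAI-1 libraries. Over all genes tested, 25.3% were called higher and 26.3% lower in Scr, and 26.2% and 26.1% in siPAI-1. TXNRD1 and SRXN1 were among the genes lower in RT112. PRDX2, which reduces hydrogen peroxide, measured 0.69 TPM in both UM-UC-3 Scr libraries and 223.93 and 207.29 TPM in RT112 Scr. TXNIP, the inhibitor of thioredoxin, measured 5.76 and 4.93 TPM in UM-UC-3 Scr and 97.6 and 86.52 TPM in RT112 Scr, and PRDX6 141.2 and 145.87 TPM and 256.09 and 249.94 TPM.

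Of 9 genes of NADPH supply, 4 were called higher and 4 lower in RT112 Scr. The dehydrogenase IDH1 measured 67.03 and 67.56 TPM in UM-UC-3 Scr and 183.04 and 186.07 TPM in RT112 Scr. The mitochondrial folate enzyme MTHFD2 lay the other way, at 329.65 and 302.29 TPM and 195.27 and 190.44 TPM. ME1, the cytosolic malic enzyme, was 12.5 and 10.14 TPM in UM-UC-3 Scr and 0.15 and 0 TPM in RT112 Scr.

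Of 11 heme and iron genes, 6 were called higher and 3 lower in RT112 Scr. The 2 ferritin chains lay in opposite directions. FTL, the light chain, measured 2459.79 and 2338.1 TPM in UM-UC-3 Scr and 571.23 and 550.23 TPM in RT112 Scr (log2 fold change -2.10, SE 0.05, adjusted p = 0.000274), whereas FTH1, the heavy chain, measured 3034.67 and 2866.19 TPM and 6037.62 and 6025.6 TPM (log2 fold change 1.03, SE 0.04, adjusted p = 0.000494).

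Of 20 detoxification enzymes, 7 were called higher and 6 lower in RT112 Scr, with both ends of the list at very low levels in 1 of the lines. ALDH3A1, an aldehyde dehydrogenase, measured 0.1 and 0.06 TPM in UM-UC-3 Scr and 85.75 and 94.49 TPM in RT112 Scr, and the epoxide hydrolase EPHX1 31.35 and 33.12 TPM and 138.12 and 148.34 TPM. UGT1A6, a glucuronosyltransferase, measured 0 and 0.1 TPM in UM-UC-3 Scr and 338.17 and 335.28 TPM in RT112 Scr, although it shares exons with UGT1A1 and the division between them is uncertain. The dehydrogenases ALDH7A1, at 163.74 and 156.22 TPM against 0.23 and 0.65 TPM, and ALDH1A1, at 49.35 and 49.51 TPM against 0.02 and 0.19 TPM, lay in the opposite direction. PTGR1, a reductase of prostaglandins and alkenals, measured 45.46 and 37.1 TPM in UM-UC-3 Scr and 0.67 and 0 TPM in RT112 Scr, and was listed at 0 in both RT112 siPAI-1 libraries.

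Of 11 other aldo-keto reductases tested, 2 were called higher and 2 lower in RT112 Scr, and 7 did not pass. AKR1B1, aldose reductase, measured 127.8 and 129.88 TPM in UM-UC-3 Scr and 274.94 and 289.91 TPM in RT112 Scr. AKR1E2 was listed at 0 in all 4 UM-UC-3 libraries and measured 1.17 and 1.48 TPM in RT112 Scr. KCNAB2, a potassium channel subunit with an aldo-keto reductase fold, was 5.19 and 5.28 TPM against 1.66 and 0.72 TPM.

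**Figure D3:**
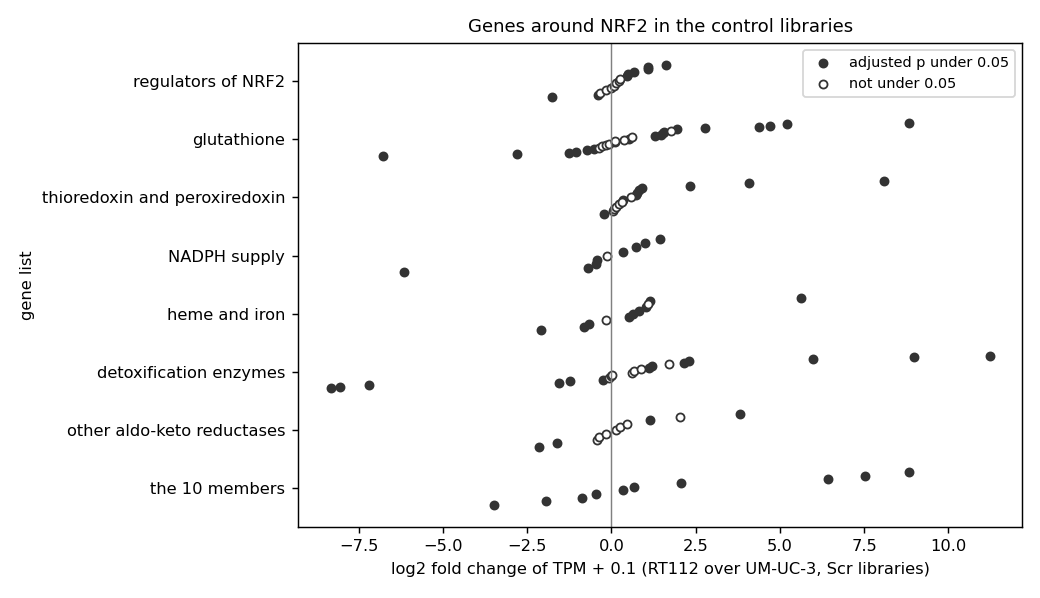
Log2 fold change of TPM + 0.1 for RT112 over UM-UC-3 in the Scr libraries, with a point for each gene of the 7 wider lists and the 10 genes themselves, filled where the adjusted p was under 0.05. Most lists hold called genes on both sides of 0, and 8 of the 9 called thioredoxin and peroxiredoxin genes lie above it.

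The lines were compared again in the siPAI-1 libraries, which are separate libraries of the same 2 lines. Here 5 of the 10 genes were called higher in RT112 (26.2% of 19359 genes tested) and 4 lower (26.1%). NFE2L2 measured 90.52 and 86.18 TPM in UM-UC-3 siPAI-1 and 134.11 and 126.49 TPM in RT112 siPAI-1 (log2 fold change 0.56, SE 0.06, adjusted p = 0.00327). The AKR1C genes again lay apart, with log2 fold changes of 7.94 for AKR1C1, 8.96 for AKR1C2 and 7.19 for AKR1C3. TXNRD1, HMOX1, NQO1 and SRXN1 were again lower in RT112, by log2 fold changes of -2.11, -3.66, -0.75 and -0.44, and AKR1B10 was higher by 2.01. GCLM did not pass (log2 fold change -0.11, 95% interval -0.31 to 0.10, adjusted p = 0.313), and its RT112 libraries, at 75.62 and 84.55 TPM, lay below its UM-UC-3 libraries, at 86.26 and 85.87 TPM. Calls of NFE2L2, NQO1 and AKR1B10 were lost without either UM-UC-3 siPAI-1 library (adjusted p from 0.0578 to 0.122), and GCLM was called lower in RT112 without RT112 siPAI-1 replicate 2 (adjusted p = 0.0454).

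In the siPAI-1 libraries, against 26.2% of all genes called higher and 26.1% called lower, the lists had 7 regulators called higher and 4 lower in RT112, 11 and 6 glutathione genes, 4 and 3 genes of NADPH supply, 6 and 2 heme and iron genes, 9 and 5 detoxification enzymes and 4 and 2 other aldo-keto reductases. Genes with the smallest p in their list that were not yet described were RBX1, the RING subunit of the KEAP1 ligase (log2 fold change 0.34), the transferase GSTP1 (1.59), the endoplasmic reticulum peroxiredoxin PRDX4 (0.84), transketolase TKT (0.98) and the aldehyde reductase AKR1A1 (0.53). The iron exporter SLC40A1 was listed at 0 in both UM-UC-3 siPAI-1 libraries and measured 11.61 and 9.76 TPM in RT112 siPAI-1. BACH1 was called lower in RT112 here (log2 fold change -0.75, adjusted p = 0.0074), as was SLC7A11 (log2 fold change -0.66, adjusted p = 0.0105).

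The second comparison, siPAI-1 against Scr within each line, asks how the genes respond to siPAI-1. None of the 10 genes passed the test in either line. In UM-UC-3 limma called 0 of 18528 genes (0%), and 6.01% had an unadjusted p under 0.05. In RT112 it called 0 of 18437 genes (0%), and 5.77% had an unadjusted p under 0.05. With 2 libraries per group, a missing call does not show that a level stayed the same.

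In UM-UC-3, 0 of the 10 genes had an unadjusted p under 0.05. NFE2L2 had 92.39 and 83.17 TPM in Scr, and in siPAI-1 it had 90.52 and 86.18 TPM, a log2 fold change of 0.01 (SE 0.07, adjusted p = 0.978). TXNRD1 measured 925.89 and 941.5 TPM with siPAI-1 (log2 fold change 0.04), NQO1 600.94 and 579.87 TPM (-0.02), HMOX1 133.98 and 133.09 TPM (-0.11) and SRXN1 151.6 and 151.9 TPM (-0.08). These 4 differed from Scr by at most 0.11 on the log2 scale. The largest difference among the genes above 10 TPM was that of GCLM, from 79.98 and 69.72 TPM with Scr to 86.26 and 85.87 TPM with siPAI-1 (log2 fold change 0.20, 95% interval -0.01 to 0.42, adjusted p = 0.831). GCLC lay the other way, at 30.93 and 32 TPM with siPAI-1 (log2 fold change -0.26, adjusted p = 0.791).

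The aldo-keto reductases stayed low in UM-UC-3 with siPAI-1. AKR1C1 measured 2.54 and 1.46 TPM, AKR1C2 0.62 and 1.07 TPM, AKR1C3 1.03 and 1.45 TPM and AKR1B10 1.77 and 1.68 TPM. The intervals were wide at these levels, for AKR1C1 from -1.35 to 0.98 on the log2 scale, and AKR1C1 and AKR1C2 overlapped between siPAI-1 and Scr. The libraries did not overlap for 3 genes that were higher with siPAI-1 (GCLM, AKR1B10 and TXNRD1; 15.1% of all genes tested) and for 3 that were lower (HMOX1, AKR1C3 and SRXN1; 17.1%).

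In RT112, the values of AKR1C1, AKR1C2 and AKR1C3 lay higher with siPAI-1 in both libraries, though none of the 3 passed. AKR1C1 went from 415.01 and 424.33 TPM in Scr to 535.19 and 463.5 TPM in siPAI-1 (log2 fold change 0.25, 95% interval 0.03 to 0.46, adjusted p = 0.838). AKR1C2 went from 366.65 and 376.38 TPM in Scr to 478.54 and 436.87 TPM in siPAI-1 (log2 fold change 0.30, 95% interval 0.13 to 0.47, adjusted p = 0.838). AKR1C3 went from 147.39 and 168.97 TPM in Scr to 208.35 and 179.36 TPM in siPAI-1 (log2 fold change 0.29, 95% interval 0.01 to 0.58, adjusted p = 0.838). Replicate 1 of siPAI-1 was the highest library for each of them. The ratio of AKR1C1 to AKR1C2 was 1.12 and 1.06 with siPAI-1. Their sum went from 781.7 and 800.7 TPM to 1014 and 900.4 TPM, and that of all 3 genes from 929 and 969.7 TPM to 1222 and 1080 TPM. The reads that AKR1C1 and AKR1C2 share mean that their values are not independent.

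GCLM lay lower with siPAI-1 in RT112, from 92.6 and 97.88 TPM to 75.62 and 84.55 TPM (log2 fold change -0.25, 95% interval -0.46 to -0.04, adjusted p = 0.838). TXNRD1 measured 213.32 and 218.96 TPM with siPAI-1 (log2 fold change -0.14, adjusted p = 0.838) and SRXN1 110.53 and 113.17 TPM (-0.07). NFE2L2 measured 134.11 and 126.49 TPM (-0.09), NQO1 379.37 and 322.66 TPM (0.09), HMOX1 11.88 and 9.24 TPM (-0.26) and AKR1B10 9.08 and 5.77 TPM (0.14), all 4 overlapping with Scr. Of the 10 genes, 3 higher (the AKR1C genes) and 1 lower (GCLM) had an unadjusted p under 0.05. Of all 18437 genes tested, 617 higher and 446 lower did, 5.77% in both directions together. The libraries did not overlap for 3 that were higher (the AKR1C genes; 18% of all genes tested) and 3 that were lower (GCLM, TXNRD1 and SRXN1; 14.7%). PECAM1, an endothelial marker, measured 0.48 and 0.39 TPM in RT112 Scr and 1.41 and 1.76 TPM in RT112 siPAI-1, while the other 5 markers of other cell types stayed under 1 TPM. Mesenchymal markers summed to 72.75 to 135 TPM in RT112 siPAI-1. Their part in the values was not tested.

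**Figure D4:**
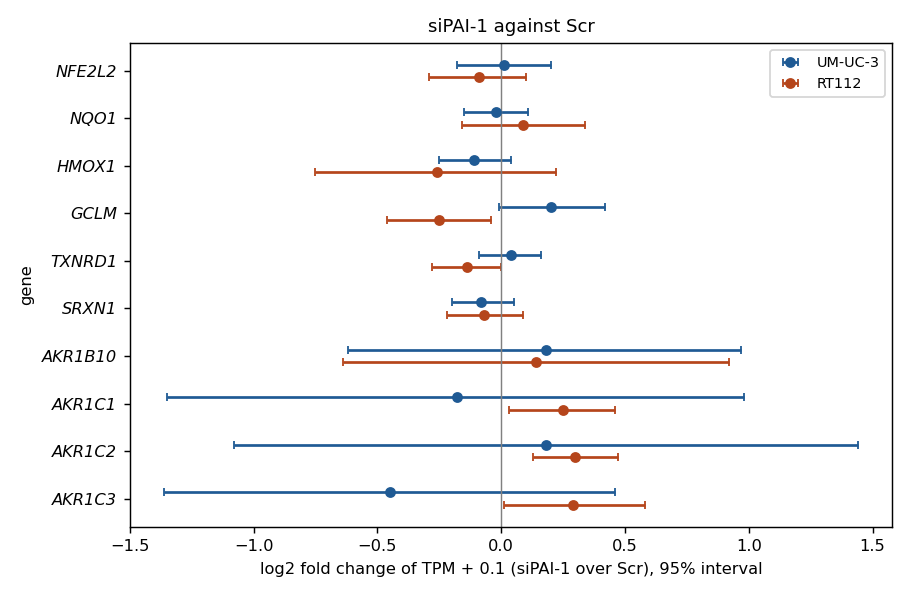
Log2 fold change of TPM + 0.1 for siPAI-1 over Scr with its 95% interval from limma, in UM-UC-3 and RT112 (2 libraries per group). The intervals of AKR1C1, AKR1C2 and AKR1C3 in RT112 lie above 0 before adjustment for many genes, at 0.25, 0.30 and 0.29, and that of GCLM lies under it at -0.25.

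**Figure D5:**
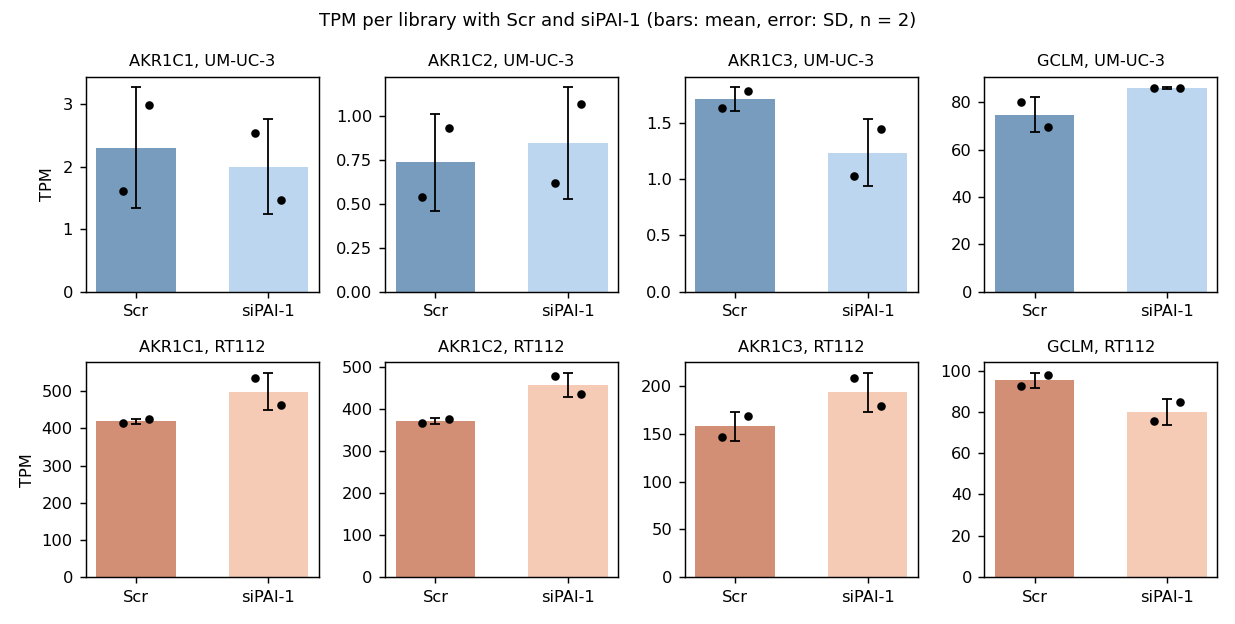
TPM of AKR1C1, AKR1C2, AKR1C3 and GCLM in each library with Scr and siPAI-1, with bars for the group mean and error bars for the SD (n = 2), on axes that start at 0 and differ between panels. In RT112 the siPAI-1 libraries of the 3 AKR1C genes lie above the Scr libraries and those of GCLM under them, whereas in UM-UC-3 GCLM lies higher with siPAI-1.

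The difference between the lines in their response was tested as an interaction over all 8 libraries, which called 0 of 20274 genes (0%), with 6.76% at an unadjusted p under 0.05. GCLM had an interaction of -0.46 on the log2 scale (RT112 minus UM-UC-3, SE 0.12, adjusted p = 0.632), TXNRD1 of -0.18 (SE 0.06, adjusted p = 0.684) and AKR1C3 of 0.75 (SE 0.24, adjusted p = 0.661). Of the 10 genes, these 3 had an unadjusted p under 0.05. AKR1C1, for which the interval in UM-UC-3 was wide, had an interaction of 0.43 (SE 0.46, adjusted p = 0.851).

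Of the wider lists, 0 genes were called with siPAI-1 in either line. In UM-UC-3 the genes with an unadjusted p under 0.05 were the glutathione genes GCLC and MGST1, the regulator SQSTM1 and the aldo-keto reductase AKR1A1, all lower, and TFRC, the transferrin receptor, which was higher. In RT112 the higher ones were the glutathione genes GPX2, GSTA4 and MGST3, the detoxification enzymes ALDH3A1 and EPHX1, the regulator MAFK and AKR1A1, and the lower ones SLC3A2, SQSTM1 and the mitochondrial transporter ABCB6. SQSTM1, TFRC, GSTA4, MGST3, MAFK and ABCB6 were picked out after their values were seen. GSTA4 and ABCB6 were low in RT112, so their fold changes depend on the pseudocount. GSTA4 measured 0.05 and 0 TPM in RT112 Scr and 0.18 and 0.15 TPM in RT112 siPAI-1. ABCB6 measured 1.06 and 1.76 TPM in RT112 Scr and 0.49 and 0.32 TPM in RT112 siPAI-1. GPX2 measured 318.75 and 260.31 TPM in RT112 siPAI-1 and ALDH3A1 109.76 and 101.92 TPM, both above their Scr libraries. In RT112, 7 of 26 glutathione genes lay higher and 5 lower without overlap, and 4 and 3 of 19 detoxification enzymes. Of 15 thioredoxin and peroxiredoxin genes, 4 lay higher and 1 lower there. Over all genes tested in RT112, the shares were 18% higher and 14.7% lower. For UM-UC-3, the glutathione list had 0 of 26 genes above Scr and 7 below it without overlap. The thioredoxin and peroxiredoxin list had 1 of 15 above and 6 below, and the 19 detoxification enzymes 4 and 4. Of all genes tested in that line, 15.1% lay above and 17.1% below. Whether these lists depart from all genes was not tested. KEAP1 measured 21.67 and 23.59 TPM in UM-UC-3 siPAI-1 and 35.37 and 31.63 TPM in RT112 siPAI-1, with log2 fold changes of -0.13 and -0.03, and neither passed.

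Over the 8 libraries, the genes outside the 10 whose log2(TPM + 0.1) most resembled that of NFE2L2 were ABHD11, LRRC42 and HN1L (Pearson r of 0.997, 0.9956 and 0.995, among 12801 genes that averaged 1 TPM or more). For TXNRD1, the gene of the 10 with the highest mean level, they were ELK3, SCRN1 and CHST3 (r of 0.9999, 0.9998 and 0.9997). The 8 libraries come from 2 lines, so these values mostly describe which genes separate the lines.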

How the data were processed

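RNA-seq was made from 8 libraries of UM-UC-3 and RT112 cells with Scr or siPAI-1, using a stranded mRNA kit and single reads of 75 bases. Per gene, the authors deposited 1 table of TPM and 1 of FPKM. The submitters' processing notes name STAR 2.5.0, RSEM 1.2.25 and the build GRCh38, and the tables' headers end as RSEM gene output does, whereas the paper's methods name featureCounts. The deposited TPM values carry 2 decimals. Of 27567 entries, 92 spike-ins at 0 were left out, and 7201 genes were at 0 in all libraries. Columns of per-sample values without a sample numbered 0.

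Counts were not part of the tables used here. Tests therefore used limma 3.58.1 in R 4.3.3 (lmFit, eBayes with a mean trend; two-sided) on log2(TPM + 0.1), for genes above 0 in at least 1 of the 4 libraries of a comparison, adjusted after Benjamini and Hochberg over every gene tested. The interaction used all 8 libraries. Errors in the text are standard errors, and fold changes are on the log2(TPM + 0.1) scale, which understates changes of low genes. An exact permutation test of 2 against 2 libraries cannot go below 0.333. The paper describes independent replicate knock-down experiments, but the labels do not tie each library to one of them, so p-values measure the spread between these libraries. Depth was estimated within 20 to 45 M reads from steps in the FPKM values of single-transcript genes of 250 to 900 bases, and reads per gene from it. The steps alone do not exclude a multiple of this depth.

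The 10 genes and all lists were chosen with earlier results of these data known. Named are the 10 genes, the 3 genes with the smallest p of each list and line comparison, KEAP1, BACH1, GCLC and SLC7A11, and the 3 most similar genes. Some genes that this rule would name are not reported here. Alternatives were other pseudocounts, FPKM, median-ratio scaling, a mean of at least 1 TPM, 1 fit over all libraries, a replicate block, no trend and leaving out each library. Coordinates and promoters are of RefSeq on GRCh38.p14, and transcripts of GENCODE release 44. The scripts were tested on simulated data. Summaries and plots used Python 3.11.15, numpy 2.4.6, pandas 2.3.3 and matplotlib 3.10.9.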

Additional observations from a re-analysis of the deposited data

Results flagged for a closer look

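For 3 genes the siPAI-1 libraries of both lines lay apart from their Scr libraries without overlap, in opposite directions in the 2 lines. The same held for 1043 of 16691 genes tested in both lines (6.25%). The log2 fold change with siPAI-1 in RT112 minus that in UM-UC-3 was -0.46 for GCLM, -0.18 for TXNRD1 and 0.75 for AKR1C3. Under siPAI-1, GCLM and TXNRD1 lay higher in UM-UC-3 but lower in RT112, and AKR1C3 lay lower in UM-UC-3 but higher in RT112. By the interaction term in limma the adjusted p was 0.632, 0.684 and 0.661, so none passed the threshold. In UM-UC-3, AKR1C3 rests on an estimated 27 to 45 reads per library. The groups of TXNRD1 lay close together in UM-UC-3, with 922 TPM in Scr replicate 1 and 925.89 TPM in siPAI-1 replicate 1. Its log2 fold change there was 0.04 (95% interval -0.09 to 0.16).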

How the results depend on the processing

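Among the alternatives that kept all libraries, the count of genes called with siPAI-1 became 1 in UM-UC-3 among genes averaging 1 TPM or more, 2 in RT112 with 1 fit over all 8 libraries, and that of the interaction 7 without the trend, each against 0. None of these calls was of the 10 genes. The interaction reversed to 0.008 for AKR1B10 with a pseudocount of 1 TPM and to -0.005 for SRXN1 with median-ratio scaling. AKR1C2, which averages under 1 TPM in UM-UC-3, gives no value there under the filter on low levels.

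Leaving out 1 library leaves 1 library in a group, which is then assumed to vary like the other group. Genes called between the lines went from 9909 to between 5698 and 6564 in Scr (2975 to 3120 higher and 2655 to 3589 lower in RT112), and from 10108 to between 5294 and 7142 in siPAI-1 (2492 to 3904 higher, 2802 to 3238 lower). Of the 10 genes, 6 to 8 were called in Scr, against 10, and 6 to 10 in siPAI-1, against 9. The interaction called 0 to 123 genes, with 20 and 123 without RT112 siPAI-1 replicates 1 and 2, 44 without UM-UC-3 siPAI-1 replicate 1 and 1 without UM-UC-3 Scr replicate 2. With siPAI-1 in UM-UC-3 the log2 fold change then ran from -0.065 to 0.087 for NFE2L2, -0.047 to 0.004 for NQO1, -0.607 to 0.239 for AKR1C1 and -0.173 to 0.527 for AKR1C2, and in RT112 from -0.024 to 0.21 for NQO1 and -0.186 to 0.459 for AKR1B10. The interaction ran from -0.002 to 0.231 for NQO1, -0.339 to 0.02 for HMOX1, -0.03 to 0.054 for SRXN1, -0.362 to 0.283 for AKR1B10 and -0.228 to 0.473 for AKR1C2. The cause was not tested.

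Replicate numbers did not pair the libraries, since replicate differences correlated between -0.046 and 0.056. The replicate block called 9387 genes between the lines in Scr and 9365 in siPAI-1, 0 with siPAI-1 in either line, and changed no call of the 10 genes. No scaling moved the median of all genes by 0.1 on the log2 scale. With 2 libraries per group and levels near 1 TPM in UM-UC-3, changes of the AKR1C genes and AKR1B10 with siPAI-1 were not detectable there unless large.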
